A study of Mus musculus with 4 samples.

Results

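The genes of mouse chromosome 16 were followed in 4 RNA libraries of a colon tumour cell culture, with attention to M83, a mutant line in which their transcripts were lower. A gene was included when its identifier lies on chromosome 16 in the GENCODE vM21 annotation of GRCm38 and its counts summed to 100 or more over the 4 libraries. This gave 348 of the 1248 chromosome 16 rows of the table, out of 11419 genes with 100 or more counts on all chromosomes. Of the other chromosome 16 rows, 642 had no count in any library and 258 had fewer than 100. The least counted genes inside the limit were Tnfrsf17 and Gm26569 with 109 counts each, and the nearest outside it was Cyp2ab1 with 99. The chromosome was chosen because the median ratio of its genes was low in M83, so the members were selected on the M83 over control ratios of the same table. Every ratio of M83 given here describes the genes and is not a test of them.

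Chromosome 16 of the mouse is a mid-sized autosome that holds the counterparts of many genes of human chromosome 21, which is present in an extra copy in Down syndrome, and of the genes of human 22q11, the segment lost in DiGeorge syndrome. As general background, the transcript level of a gene depends both on how many copies of it a cell carries and on how each copy is transcribed and its RNA degraded. Genes that share a chromosome need not share a function, though some neighbours do, and the list joins chaperonin, proteasome, replication, signalling and immune genes. The table holds RNA counts, and DNA was not analysed here.

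Promoters are shown for 4 members that stand for the patterns described further on. Psmd2 and Cct8 are widely used genes that were lower in M83, as most of the chromosome was, G730013B05Rik is a long noncoding RNA gene that was far lower, and Dtx3l, an interferon-responsive gene, was not lower. Each sequence is the 250 bases before the start site from RefSeq (GRCm38.p6), written 5′ to 3′ on the strand of the gene, with every CG step in capitals. The Psmd2 window (chr16:20651402-20651651, plus strand) held 16 CG steps, the Cct8 window (chr16:87495870-87496119, minus strand) 22, the G730013B05Rik window (chr16:50525995-50526244, plus strand) 7 and the Dtx3l window (chr16:35939028-35939277, minus strand) 13.
Psmd2: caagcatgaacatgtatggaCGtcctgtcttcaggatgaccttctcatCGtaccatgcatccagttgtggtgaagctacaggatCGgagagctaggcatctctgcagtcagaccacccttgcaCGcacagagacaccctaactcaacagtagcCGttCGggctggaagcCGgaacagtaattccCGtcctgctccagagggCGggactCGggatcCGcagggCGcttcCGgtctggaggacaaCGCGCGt
Cct8: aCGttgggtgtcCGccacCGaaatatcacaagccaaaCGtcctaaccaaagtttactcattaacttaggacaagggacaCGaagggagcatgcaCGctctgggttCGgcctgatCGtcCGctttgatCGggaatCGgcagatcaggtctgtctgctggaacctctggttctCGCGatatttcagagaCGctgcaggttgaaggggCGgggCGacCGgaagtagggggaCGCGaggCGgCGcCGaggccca
G730013B05Rik: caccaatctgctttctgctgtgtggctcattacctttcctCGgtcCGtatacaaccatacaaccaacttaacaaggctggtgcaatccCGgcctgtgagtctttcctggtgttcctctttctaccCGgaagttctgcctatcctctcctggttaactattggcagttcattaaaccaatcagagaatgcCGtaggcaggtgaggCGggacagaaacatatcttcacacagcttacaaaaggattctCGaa
Dtx3l: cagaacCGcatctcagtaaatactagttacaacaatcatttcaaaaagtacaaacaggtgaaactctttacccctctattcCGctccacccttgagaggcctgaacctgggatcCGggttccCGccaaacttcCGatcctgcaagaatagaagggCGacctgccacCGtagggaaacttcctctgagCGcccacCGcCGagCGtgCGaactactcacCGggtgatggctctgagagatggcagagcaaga

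The study compared tumour cells of colon origin, kept in RPMI medium, with mutants made with ENU, a chemical mutagen. The groups were the control and 3 mutants, named M8, M32 and M83, each with 1 poly(A) RNA library, so no value has a replicate check and no test between groups was possible. Library totals ranged from 25818148 counts (control) to 28879954 (M8), and the M83 library held 28011773. Whether a library pools the triplicates that the study design mentions is not given in the sources used here. Of 7 epithelial markers, Epcam and Cdx2 had no count and Cdh1 had at most 4, while Krt18 had 710 to 1794 and Krt20 1008 to 3667, and the list summed to 2001 to 5126. Vim, a mesenchymal marker, had 115473 to 146659 counts. The 7 leukocyte markers summed to 23 to 49 counts in a library, with Cd3e, Adgre1 and Csf1r at 0, and of the endothelial markers Pecam1 had at most 18. How the control and the mutants relate by culture or clone is not stated.

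Transcripts of chromosome 16 were lower in M83 as a block. The median log2 ratio of the 348 genes was -0.54 in M83 over control, which is 1.46-fold lower, against a median of 0.00 over all 11419 genes. In M8 over control it was -0.01 and in M32 over control -0.05. Chromosome 16 took 2.16% of all counts in control (95% exact Clopper-Pearson interval 2.15 to 2.16), 2.14% in M8 and 2.09% in M32, and 1.50% in M83 (1.49 to 1.50). In bulk RNA, fewer cells that transcribe a gene and less RNA per cell cannot be told apart. These intervals, as all others given here, cover counting error alone. The first 3 libraries lay close together and M83 lay below them.

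A gene is counted below as lower, or as higher, where its log2 ratio was 0.32 or more from 0. Of the 348 genes, 260 were lower in M83 than in control by this measure (74.7%), where 18.8% of all tested genes were, and 21 were higher (6.03%, against 22.2%). A fall of 2-fold or more was seen in 22 genes (6.32%, against 1.53% of all genes) and a rise of 2-fold or more in 6 (1.72%, against 5.53%). The exact interval of the ratio lay below 1 for 275 genes (79.0%, against 34.3%) and above 1 for 23 (6.61%, against 33.7%). M83 had the lowest normalised level of the 4 libraries for 268 genes (77.0%, against 27.9% of all genes) and the highest for 9 (2.59%, against 28.5%).

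Set beside the other mutants in place of control, the median log2 ratio was -0.51 for M83 over M8 and -0.47 for M83 over M32. In these comparisons, which share the M83 library, 223 genes (64.1%, against 22.9% of all genes) and 238 genes (68.4%, against 20.2%) were lower. In M8 over control 71 members were lower (20.4%, against 19.1% of all genes) and 58 higher (16.7%, against 20.4%). In M32 over control 68 were lower (19.5%, against 15.5%) and 62 higher (17.8%, against 20.2%).

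**Figure D1:**
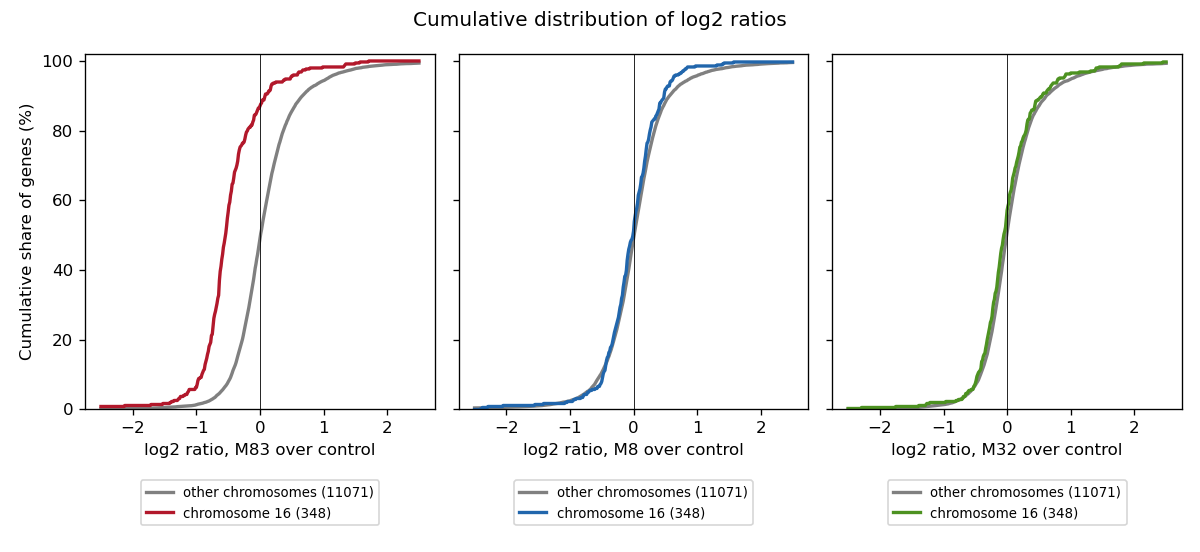
Cumulative share of genes (vertical axis, %) against the log2 ratio over control (horizontal axis) for M83, M8 and M32, with the 348 chromosome 16 genes in colour and 11071 other genes in grey. The M83 curve is shifted left as a whole, to a median of -0.54, while the curves of M8 and M32 lie close to the grey ones.

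Among the autosomes and the X, chromosome 16 had the lowest median in M83. The next were chromosome 13 at -0.24 and chromosome 15 at -0.22, and the highest was chromosome 17 at 0.17. A median of like size was found once more in the other lines, for the genes of chromosome 12 in M8 at -0.55, and the lowest in M32 was chromosome 6 at -0.24. Chromosome 12 had a median of 0.14 in M83, so M8 and M83 differed in which chromosome lay low.

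**Figure D2:**
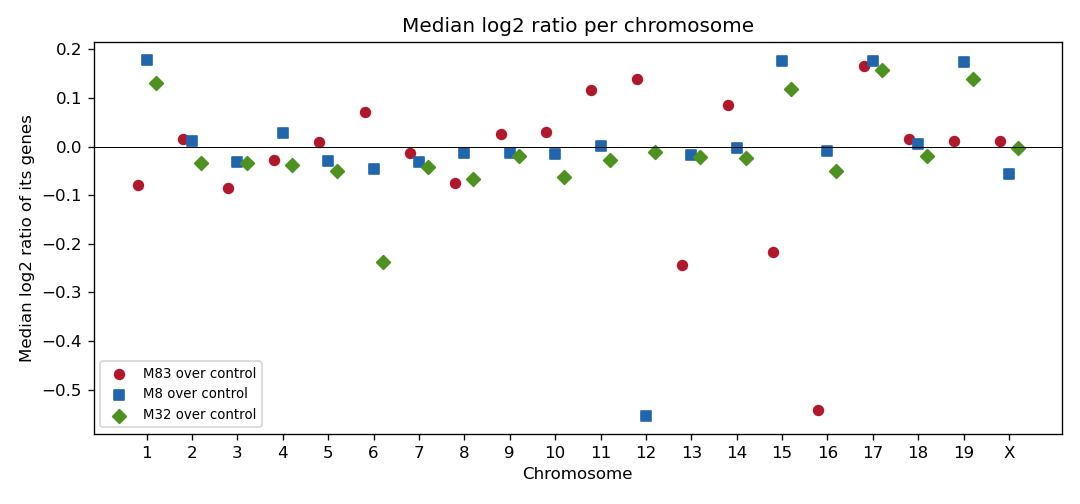
Median log2 ratio over control (vertical axis) of the genes on each autosome and the X (horizontal axis), with circles for M83, squares for M8 and diamonds for M32. Chromosome 16 in M83 (-0.54) and chromosome 12 in M8 (-0.55) stand below all other points.

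The lower level ran from one end of the chromosome to the other. In bins of 10 Mb the median log2 ratio of M83 over control lay between -0.63 (37 genes in the first 10 Mb) and -0.36 (7 genes between 60 and 70 Mb). It was -0.60 in the last bin, between 90 and 100 Mb, with 46 genes. The largest step between neighbouring bins was 0.23. The same bins ranged from -0.15 to 0.23 in M8 and from -0.18 to 0.04 in M32. On the other chromosomes 253 bins held 5 or more genes, and in M83 8 of them were at or below -0.36. The lowest of these was on chromosome 13 between 10 and 20 Mb, at -0.52. Chromosome 13 also held those at 20 to 30 (-0.40), 30 to 40 (-0.40), 50 to 60 (-0.44) and 70 to 80 Mb (-0.41). These chromosome 13 bins ranged from -0.08 to 0.03 in M8 and from -0.06 to -0.0036 in M32. The remaining ones lay on chromosomes 11, 3 and 15.

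A running median over 15 neighbouring genes was below 0 in M83 in all 334 windows, in 176 windows in M8 and in 230 in M32. Neighbouring windows share most of their genes, and such windows were not computed for other chromosomes. The running median was lowest in M83 from Glyr1 to Nubp1 (positions 5013909 to 10424428, GRCm38), at -0.73. Its highest value, -0.05, came from Zfp148 to Parp9 (positions 33380836 to 35972605), a stretch chosen after its values were seen and described further on. The first member of the chromosome, the zinc finger gene Zfp263, had 21.2, 25.9, 18.3 and 18.5 CPM (counts scaled by normalised library size) in control, M8, M32 and M83, so M83 and M32 were alike. The last member, A630089N07Rik, had 13.5, 9.67, 9.31 and 8.60 CPM in the same order, with control above the 3 lines.

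**Figure D3:**
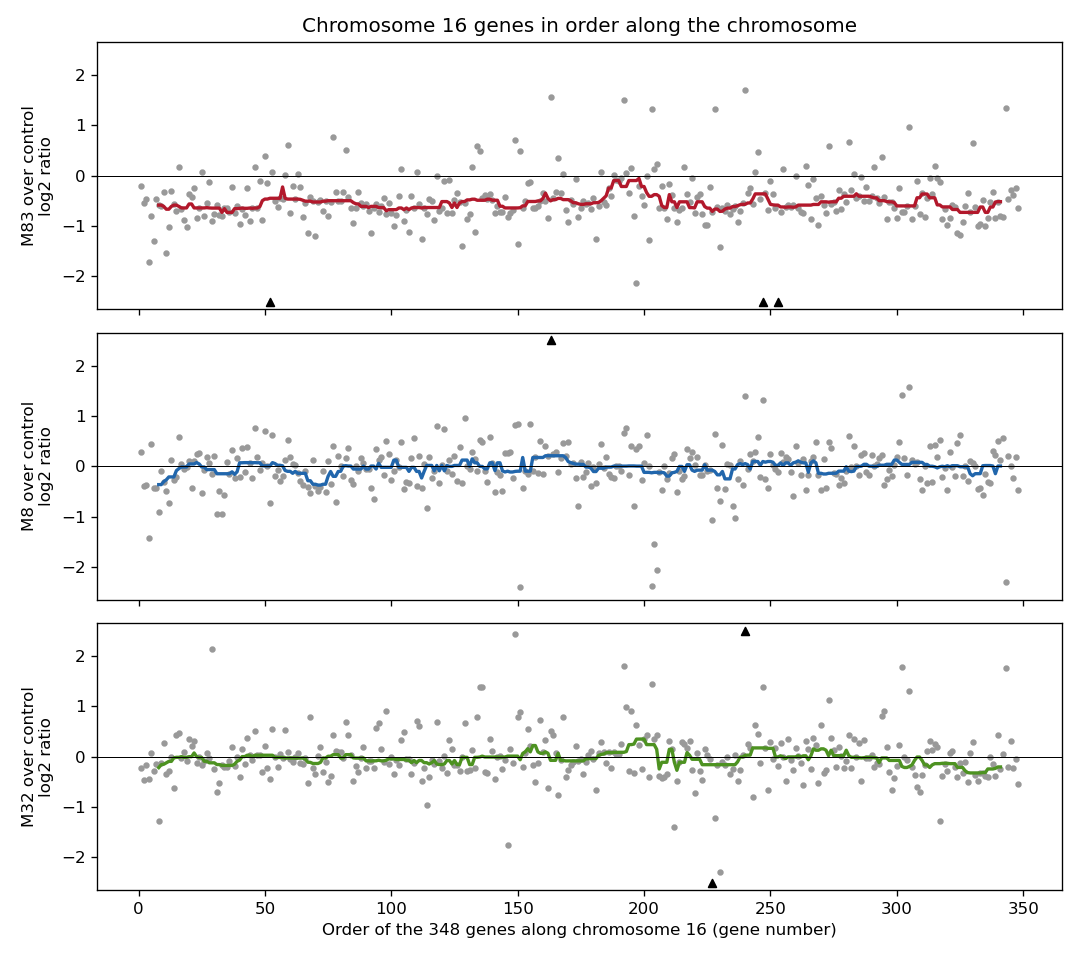
Log2 ratio over control (vertical axis) of the 348 genes in their order along chromosome 16 (horizontal axis), for M83, M8 and M32 from top to bottom, with grey points for genes, black triangles for genes beyond 2.5 in size and a coloured running median of 15 genes. The M83 line stays below 0 from end to end and comes nearest to it, at -0.05, near gene 198, while the M8 and M32 lines move about 0.

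Genes differed in how far they were from the block. The middle 50% of the members spanned 0.41 log2 units in M83 over control, against 0.51 on the other chromosomes. Of the 348, 198 lay within 0.25 of the members' median and 279 within 0.5. For 146 genes the exact 95% interval of the M83 over control ratio held the members' median ratio of 0.687, and the others departed from it by more than counting error. Highly counted genes were closer to each other. The third with the most counts had a median of -0.58 and a middle 50% of 0.29 log2 units, with 104 of 116 genes lowest in M83. The third with the fewest counts had a median of -0.48 and a middle 50% of 0.75, with 66 of 116 lowest in M83. M83 was lowest for 77.0% of all members and 27.9% of all genes. Genes of other chromosomes in the same 2 count ranges had medians of -0.06 (most counts) and 0.17 (fewest counts). Their middle 50% spanned 0.39 and 0.79, so the wider spread at few counts was not particular to chromosome 16.

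The shift was seen in each class of promoter and on both strands. RefSeq windows were found for 284 members, with a median of 18 CG steps in the 250 bases before the start. The median log2 ratio of M83 over control was -0.58 in the third of members with the fewest CG steps (0 to 13), -0.47 in the group between and -0.61 in the third with the most (22 to 55). Genes on the plus strand had a median of -0.56 and those on the minus strand -0.53. The annotated bodies of 230 members overlap another gene, and reads of such genes cannot be told apart without a strand setting, which is not given in the sources used here. The 118 members that overlap no other gene had a median of -0.57.

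Among the 10 members with the most counts, 8 were lowest in M83, beside 77.0% of all members and 27.9% of all genes. Of the 10, 9 were lower than control, beside 74.7% of all members and 18.8% of all genes. Psmd2, which encodes a subunit of the base of the proteasome's regulatory particle, had 597, 596, 488 and 328 CPM in control, M8, M32 and M83. Its ratio of M83 over control was 0.549 (95% exact interval 0.535 to 0.564). Cct8, a chaperonin subunit gene that helps to fold actin and tubulin, had 611, 689, 535 and 339 CPM in the same order (ratio 0.555, interval 0.541 to 0.569). For both genes the gap between M83 and the next library was wider than the range of the other 3 on the log2 scale.

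Eif4g1, the scaffold gene of the cap-binding translation factor, had 1356, 1308, 1135 and 798 CPM in control, M8, M32 and M83. Hmgn1, a nucleosome-binding protein gene, had 454, 498, 384 and 259 CPM. Naa50, an N-terminal acetyltransferase gene, had 369, 377, 292 and 216 CPM. In these 3 genes M32 was also below control, and M83 was below M32. Tnk2, a non-receptor tyrosine kinase gene, had 366, 375, 387 and 241 CPM, with 3 libraries nearly level and M83 low. Ap2m1, the medium chain gene of the AP-2 clathrin adaptor, had 553, 495, 611 and 332 CPM. Gm4737 had 500.1, 434, 459 and 363 CPM, but 95.6% of its 31-base words also occur in transcripts of other genes, so its counts may hold reads of other genes. Words shared with other genes also made up 52.7% of Rpl24, 32.4% of Ap2m1 and 31.6% of Psmd2, so these levels are less certain. The exceptions were Rpl24, at 499.8, 329, 415 and 333 CPM, where M8 was as low as M83, and App, the gene of the amyloid precursor protein, at 251, 293, 441 and 323 CPM. App was above control in M83 and highest in M32.

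**Figure D4:**
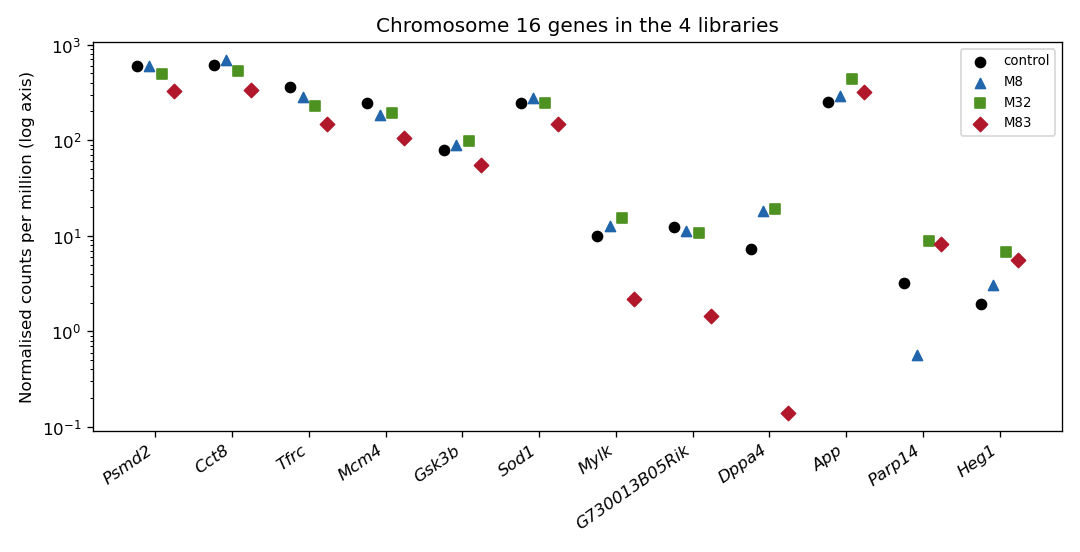
Normalised CPM (vertical log axis) of 12 chromosome 16 genes in control, M8, M32 and M83, 1 symbol per library. M83 is the lowest symbol for the 9 genes from Psmd2 to Dppa4 and lies above control for App, Parp14 and Heg1.

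Complexes whose other subunits are encoded elsewhere gave a comparison within a function. In 9 complexes whose subunits were listed, 12 members were found, and all 12 lay below the median of their partners on other chromosomes in M83 over control, by 0.28 (Rpl35a) to 0.79 (Polr2h) log2 units. Of these, 8 lay below every partner. In M8, 6 of the 12 lay below their partners' median, and in M32, 7 did. The chromosome was selected on these same M83 ratios, so a place below partners elsewhere follows largely from that choice and is no test. Of all members 74.7% were lower in M83 than in control, against 17% of the genes on other chromosomes. These lists were chosen with earlier results known, and the 60S ribosome, the ATP synthase and the eIF4F group contribute 2 members each.

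In the CCT chaperonin, Cct8 was at -0.85 and its 7 partners between -0.48 and -0.14. In the 19S proteasome, Psmd2 was at -0.86 and 17 partners between -0.48 and 0.06. Polr2h, the gene of a small subunit shared by the nuclear RNA polymerases, had 37.8, 41.8, 32.3 and 17.3 CPM in control, M8, M32 and M83 and a log2 ratio of -1.12, against -0.49 to 0.02 for 11 other polymerase II subunits. Eif4g1 (-0.76) and Eif4a2 (-0.74), an RNA helicase of the same initiation factor, were near each other. Both were below the median of -0.26 of the 6 other genes in that list. The list was broad, as Eif4b, Eif4h and Eif4g2 are related factors and not subunits of it. Ap2m1 was at -0.74 with partners between -0.42 and 0.38. The exceptions were Atp5j (-0.44), a subunit gene of the ATP synthase with 2 of 13 partners below it, Atp5o_2 (-0.62), the table's name for a further subunit gene of that enzyme, with 1 of 13 and 49.6% of its words shared with other genes, Rpl24 (-0.58) with 1 of 44 partners below, and Rpl35a (-0.40) with 4 of 44.

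**Figure D5:**
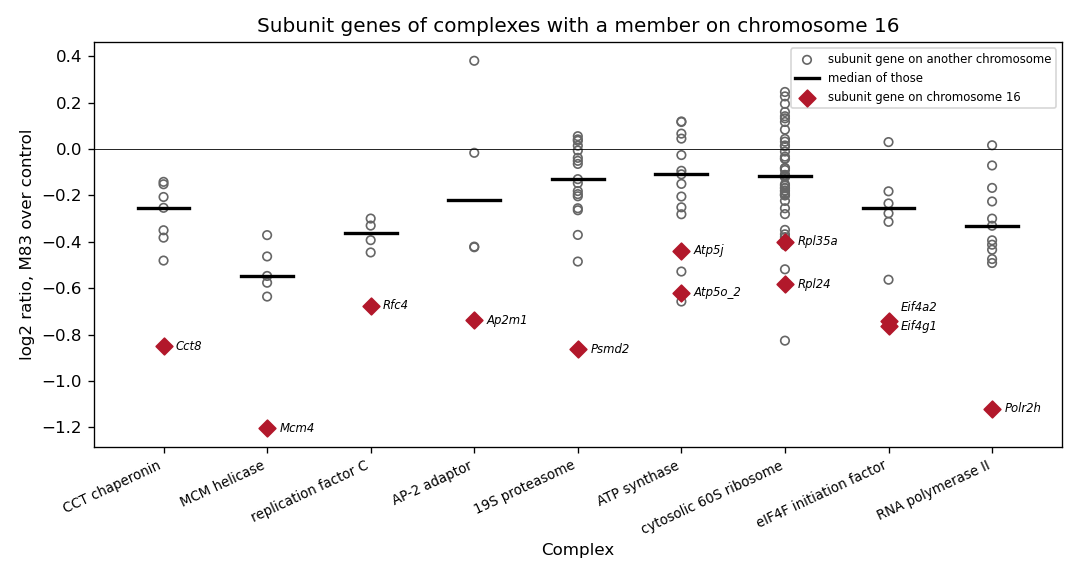
Log2 ratio of M83 over control (vertical axis) for the genes listed under 9 complexes (horizontal axis). Open circles mark genes on other chromosomes, a bar their median and red diamonds genes on chromosome 16. The diamonds are below the bar in each complex, from -0.40 (Rpl35a) to -1.20 (Mcm4).

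Of the 15 replication and repair genes followed, 11 were lower in M83 than in control (73.3%, beside 74.7% of all members and 18.8% of all genes) and 1, Parp14, was higher. The median was -0.61 in M83 over control, beside -0.54 for all members. In M8 over control the list was also low, at -0.44, beside -0.01 for all members. It holds the interferon-responsive genes Parp14, Parp9 and Dtx3l, described further on, which were at -2.38, -2.05 and -1.55 in M8 over control. In M32 over control the list was at -0.11, beside -0.05. Mcm4, a subunit gene of the replicative helicase, had 243, 184, 191 and 106 CPM in control, M8, M32 and M83, a ratio of 0.434 in M83 (95% exact interval 0.415 to 0.453). Cdc45, which joins that helicase at the origin, had 47.1, 35.1, 33.6 and 19.7 CPM. Chaf1b, a histone chaperone gene that acts behind the fork, had 39.8, 29.2, 28.4 and 19.9 CPM. Donson, a replication fork gene, had 23.6, 17.1, 19.5 and 11.9 CPM. In these 4 genes all 3 lines were below control and M83 was lowest. The helicase genes on other chromosomes were also below control in M83, with the 5 partners of Mcm4 between -0.64 and -0.37, so Mcm4 at -1.20 was lower within a complex that was itself low. How far a change in proliferation contributes was not tested. The repair genes Prkdc, the catalytic subunit of DNA-PK, and Rfc4, a clamp loader subunit gene, were at -0.53 and -0.68 in M83.

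Of the 32 members that are orthologues of human 22q11 genes, 30 were lower in M83 than in control (93.8%, beside 74.7% of all members and 18.8% of all genes) and 0 were higher. M83 was lowest for 29 (90.6%, beside 77.0% and 27.9%). The median log2 ratio was -0.61 in M83, -0.04 in M8 and -0.04 in M32. Ranbp1, a partner of the nuclear transport GTPase Ran, had 363, 339, 287 and 182 CPM in control, M8, M32 and M83. Hira, a histone chaperone gene, had 97.4, 90.7, 88.1 and 53.0 CPM. Of their words, 20.2% for Ranbp1 and 43.1% for Hira occur in other genes. Txnrd2, the mitochondrial thioredoxin reductase gene, had 353, 315, 360 and 182 counts. In each of these 3 genes M83 was below all other libraries. Crkl, a signalling adaptor gene, had 65.3, 73.6, 64.3 and 45.1 CPM. Dgcr8, the RNA-binding partner of Drosha in microRNA processing, was less low, at 51.4, 50.6, 46.1 and 38.8 CPM. The members not counted as lower were Tango2, at 8.46, 11.8, 10.6 and 9.23 CPM, and the topoisomerase gene Top3b, at 33.9, 20.8, 36.6 and 27.1 CPM, which was lowest in M8. Med15, a Mediator subunit gene, had 78.9, 50.2, 67.2 and 50.9 CPM, with M8 and M83 level.

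Orthologues of human chromosome 21 genes, which fill much of the distal part of the chromosome, followed the same shift. Of 54 members, 43 were lower in M83 than in control (79.6%, beside 74.7% of all members and 18.8% of all genes) and 3 were higher. M83 was lowest for 44 (81.5%, beside 77.0% of all members and 27.9% of all genes). The median was -0.56, beside 0.01 in M8 and -0.14 in M32. Sod1, the cytosolic superoxide dismutase gene, had 246, 276, 245 and 149 CPM in control, M8, M32 and M83, with 3 libraries close together. Son, a splicing cofactor gene, had 336, 328, 306 and 211 CPM, and Gart, an enzyme gene of purine synthesis, 229, 196, 176 and 127 CPM. Dyrk1a, a dose-sensitive kinase gene, had 70.1, 55.9, 70.0 and 49.1 CPM. Ets2 had 54.2, 67.0, 49.0 and 43.3 CPM, a small difference from M32. Runx1, a transcription factor gene, had 68.1, 55.5, 47.7 and 53.5 CPM, so M32 was lower than M83. Mrpl39, a mitochondrial ribosome gene, had its highest level in M83, at 15.2, 15.2, 13.3 and 17.2 CPM.

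The 4 cytokine receptor genes within this segment had a median of -0.21 in M83 over control. The 46 genes of the last 10 Mb bin, in which they lie, were at -0.60. The median of the 4 was 0.04 in M8 over control and 0.19 in M32 over control. M83 was the lowest library for 3 of the 4 (75%, beside 77.0% of all members and 27.9% of all genes). Ifnar2 and Ifnar1, the chains of the type I interferon receptor, had log2 ratios of -0.44 and -0.36 in M83 over control. Ifnar1 had 39.2, 31.3, 43.1 and 30.4 CPM in control, M8, M32 and M83, so M8 and M83 were alike. Il10rb, a shared chain of the interleukin-10 receptor family, was at -0.05, and Ifngr2, a chain of the interferon gamma receptor, at 0.20. Ifngr2 had 14.4, 19.5, 17.2 and 16.6 CPM, with control lowest. Tmem50b, next to Ifngr2, was at -0.04. Ifnar1 lies between Il10rb and Ifngr2, so members near the control level and a lower one alternated. Scaled by library size only, Il10rb and Tmem50b stood at 0.0088 and 0.022.

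Of 16 signalling members 12 were lower in M83 than in control (75%, beside 74.7% of all members and 18.8% of all genes) and 0 were higher. Gsk3b, a kinase gene of Wnt and insulin signalling, had 79.4, 88.7, 98.4 and 55.4 CPM in control, M8, M32 and M83, and Pak2, a kinase gene downstream of Rac and Cdc42, 148, 156, 138 and 101. Dlg1 and Cblb were near control, at 0.03 and 0.13. Of 25 chromatin and transcription members 23 were lower (92.0%, beside the same 74.7% and 18.8%). Their median was -0.60 in M83 over control, beside -0.54 for all members, and the lowest was at -1.12. Crebbp, a histone acetyltransferase gene (-0.33), and Snai2, a mesenchymal transcription factor gene (-0.42), were less low than that median. Snai2 had 22.6, 15.6, 39.1 and 16.8 CPM, so M8 was as low as M83.

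Among 7 surface genes 4 were lower (Tfrc, Boc, Cd80 and Cd47, or 57.1%, beside 74.7% of all members and 18.8% of all genes), 2 were higher (App and Heg1) and Itgb5 was neither. Tfrc, the transferrin receptor gene through which cells take up iron, had 358, 284, 227 and 149 CPM in control, M8, M32 and M83, with all lines below control and M83 lowest. Cd47, which gives phagocytes a signal to spare the cell, had 108, 110, 106 and 84.4 CPM, and 3 libraries were nearly level. Cd80, a co-stimulatory ligand gene, had 463, 458, 403 and 405 counts, a small difference from M32. Boc, a Hedgehog co-receptor gene, had 22.2, 18.6, 15.7 and 11.7 CPM.

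Of 21 metabolic and mitochondrial genes 17 were lower in M83 than in control (81.0%, beside 74.7% of all members and 18.8% of all genes) and 0 were higher. Opa1, a fusion GTPase gene of the inner membrane, had 113, 103, 104 and 74.9 CPM in control, M8, M32 and M83. Abcc1, a drug and glutathione conjugate exporter gene, had 230, 172, 159 and 104 CPM. Slc25a1, the mitochondrial citrate carrier gene, had 46.0, 64.9, 86.9 and 27.2 CPM, so the lines spread to both sides of control and M83 was lowest. Cox17, a copper chaperone gene, was low in both M32 and M83, at 41.5, 42.5, 25.3 and 24.8 CPM. Ndufb4, a complex I subunit gene, and Gbe1, the glycogen branching enzyme gene, were near control in M83, at 0.17 and -0.03.

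A few members were lower than the block by a wide margin. Dppa4, a chromatin-associated gene of pluripotent cells, had 185 counts in the control library, 518 in both M8 and M32, and 4 in M83. The ratio of M83 over control was 0.0192 (95% exact interval 0.00516 to 0.0499). M83 was near the limit of detection while the other lines were above control. G730013B05Rik (positions 50526245 to 50559459), whose promoter is printed above, had 313, 323, 292 and 42 counts, a ratio of 0.119 (interval 0.0840 to 0.164). Its 3 other libraries were close together. The members on either side, Bbx, a transcription factor gene, and the noncoding gene Dubr, were at -0.64 and -0.73. Mylk, the myosin light chain kinase gene, had 251, 359, 415 and 63 counts, a ratio of 0.222 (interval 0.166 to 0.294). Tnfrsf17, which encodes the B-cell maturation antigen, had 44, 29, 34 and 2 counts, a ratio of 0.0403 (interval 0.00473 to 0.154), and rests on few counts. About 40.1% of the words of Dppa4 occur in other genes.

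Other genes in this group were less extreme. Slc5a3, a myo-inositol transporter gene, and Mrps6, a mitochondrial ribosome gene, begin within the same stretch and overlap, and they were at -1.19 and -1.14 in M83, so their reads may not be separate. Camk2n2, an inhibitor gene of CaM kinase II, and Srl, a sarcoplasmic reticulum gene, were at -1.39 and -1.53. Tiam1, an activator gene of Rac, had 52, 159, 195 and 35 counts in control, M8, M32 and M83. Its ratio of M83 over control was 0.596 (95% exact interval 0.377 to 0.933), while M8 and M32 were above control. Hspbap1 had 300, 337, 239 and 138 counts, a log2 ratio of -1.28.

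Parp14, Parp9, Dtx3l and Rtp4 were among the 8 members with the highest M83 level against the mean of the other libraries. Rtp4 is named for this rank alone, while Parp14, Parp9 and Dtx3l also stood in the replication and repair list. Parp14, Parp9, Dtx3l, Rtp4 and Mx2 are known as interferon-responsive genes, and no list of such genes was tested. Parp14, an ADP-ribosyltransferase gene, had 82, 16, 240 and 234 counts in control, M8, M32 and M83. Parp9 had 302, 80, 430 and 403 counts, and Dtx3l, a ubiquitin ligase gene whose product pairs with that of Parp9, 257, 97, 348 and 318. Rtp4, a receptor transporter gene, had 140, 28, 278 and 224 counts, and Mx2, an antiviral GTPase gene, 16, 2, 62 and 49. All 5 were lowest in M8, with M32 and M83 above control. Dtx3l in M83 lay within counting error of control (ratio 1.10, 95% exact interval 0.927 to 1.30). The log2 ratios of M83 over control were 1.32, 0.24, 0.13, 0.50 and 1.34 in the same order, and each was below its ratio in M32 over control. Parp9 and Dtx3l overlap at their starts, and their reads cannot be told apart there.

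Other members with high values in M83, or high beside the other mutants, were named by rank or after their values were seen, and they form no list. Heg1, a receptor gene of endothelial junctions, had 49, 88, 185 and 160 counts in control, M8, M32 and M83. Ccdc80, a secreted matrix protein gene, had 207, 616, 1476 and 766 counts, Fam43a 35, 270, 54 and 121, and Gap43, a growth cone gene, 20, 36, 8 and 60. For Heg1 and Ccdc80 all lines were above control and M32 was highest. Igsf11 had 179, 94, 14 and 122 counts, so it was lower in every line and lowest in M32. Dop1b had 208, 244, 270 and 371 counts and was highest in M83.

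The 15 genes from Zfp148 to Parp9 hold several of these. In that stretch 7 of 15 genes were lowest in M83, beside 77.0% of all members and 27.9% of all genes. Of the 15, 6 were lower than control, beside 74.7% of all members and 18.8% of all genes. Higher were 2, Heg1 and Parp14, beside 6.03% of all members and 22.2% of all genes. The integrin gene Itgb5 had 126, 214, 251 and 132 CPM in control, M8, M32 and M83, and the exchange factor gene Kalrn 28.0, 37.2, 52.8 and 31.1. In these genes M8 and M32 were above control and M83 was near it. The median of the 15 genes was -0.05 in M83 over control and 0.35 in M32 over control, and it was -0.43 for M83 over M32. The chromosome's median for M83 over M32 was -0.47. For M83 over M8 the stretch was at -0.16 and the chromosome at -0.51. Hspbap1 and Mylk lie in the same stretch, at -1.28 and -2.13 in M83 over control.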

How the data were processed

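Per the deposited table, the values are raw counts of each gene in 1 column per library, whole numbers without normalisation. The submitters' processing notes name the build GRCm38, while aligner, counter, annotation and strand setting were not given in the sources used here. Of 41457 rows, 41434 were found in GENCODE vM21, which gave positions and biotypes. Log2 ratios used edgeR 4.0.16 TMM factors (0.989 to 1.03) computed from genes with 100 or more summed counts, and a prior count of 2. CPM values use the same factors without a prior count. The computation was tested on simulated counts. With 1 library per group no test was run. Groups were described by counts, medians and the share of all 11419 genes past the same fold. Intervals of ratios and shares are exact binomial (Clopper-Pearson, scipy 1.17.1), at 95%. The limit for a count of 0 is 3 counts, or 0.116 CPM in control. Shared words are 31-base words of the GENCODE transcripts, on either strand.

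Members and lists were chosen with earlier results of these data known. Named genes came from the functional lists, the 10 most counted members, the 8 lowest and 8 highest against the mean of the other libraries (400 or more counts), and both ends of the chromosome. Gap43, Ccdc80, Tnfrsf17, Dubr, Hspbap1, Kalrn, Zfp148, Bbx, Glyr1 and Nubp1 were chosen after their values were seen, as was the stretch from Zfp148 to Parp9. Alternatives were other scalings (among them DESeq2 1.42.0 size factors), filters, prior counts, references, biotypes and bins. Some genes of the lists are not reported here.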

Additional observations from a re-analysis of the deposited data

How the results depend on the processing

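The median log2 ratio of the chromosome 16 genes in M83 over control was negative under every scaling, filter, prior count, reference and gene subset tried. It was -0.48 with library size only, -0.42 with no filter, -0.51 with M8 as the reference, -0.47 with M32 and -0.50 with the mean of the other 3 libraries. Among the 118 members that overlap no other gene, 91 were lower by 0.32 or more on the log2 scale. That is 77.1%, beside 74.7% of all members and 18.8% of all genes. M83 was lowest for 97 of them (82.2%, beside 77.0% of all members and 27.9% of all genes). With no filter the lowest bin was -0.50 and the highest stood at 0, the 258 genes added holding 1 to 99 counts each. The highest bin was -0.27 with M8 as the reference and -0.23 with the mean of the other 3 libraries. Running windows of 25 members, which are not bins, ranged from -0.81 to -0.21, beside -0.73 to -0.05 in windows of 15. Without the 10 most counted members chromosome 16 took 1.61%, 1.60%, 1.58% and 1.13% of the counts of control, M8, M32 and M83.

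With library size only, 4 named genes near 0 turned positive, to 0.0043 for Zfp148, 0.022 for Tmem50b, 0.0088 for Il10rb and 0.022 for Gbe1. Genes at 0.32 or more from 0 changed sign with the reference library alone. With M8 as the reference the log2 ratio was 0.018 for Rpl24, 0.36 for Igsf11, -1.15 for Fam43a, 0.020 for Med15 and 0.11 for Snai2. With M32 it was -0.45 for App, -0.13 for Parp14, -0.40 for Rtp4, 2.87 for Igsf11, -0.30 for Heg1, -0.42 for Mx2, -1.04 for Ccdc80 and 0.17 for Runx1, and with the mean of the 3 libraries 0.84 for Igsf11. No paired analysis was possible because each group has 1 library. With 1 library per group, culture and line cannot be told apart, and genes with few counts are limited by depth.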
